A study of Mus musculus with 7 samples.

Results

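Intervals bound by Srsf3 were examined in genes of endosomal and Rab-dependent membrane traffic. Genes were taken by symbol: names that start with Rab and a digit, Rabgap, Rabep, Vps, Snx and a digit, Ehd and a digit, Tbc1d, Arfgap, Arfgef, Acap or Asap, and the 6 single genes Eea1, Wdr81, Wdr91, Becn1, Hgs and Pikfyve. This rule reads only the name of a gene and no measured value. It found 219 of 14780 intervals over both lists, in 101 of 5367 genes. The untreated list held 82 of its 6396 intervals in 56 such genes, and the PDGF-AA list held 137 of its 8384 intervals in 87. In the GENCODE M39 annotation 191 protein-coding genes meet the rule. The other genes had no interval, and whether they are expressed in these cells was not examined.

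Srsf3 is a serine/arginine-rich protein that binds RNA and takes part in splicing, mRNA export and other steps of RNA processing. Its binding was profiled by eCLIP, in which RNA crosslinked to a protein by ultraviolet light is pulled down with an antibody and sequenced. The cells were iMEPM, a line of immortalized mouse embryonic palatal mesenchyme that the study's methods trace to 1 Cdkn2a-/- embryo, so both groups share that deletion. After serum starvation, given in the study's methods, the cells were left untreated or were stimulated for 1 hour with PDGF-AA at 10 ng/mL. PDGF-AA is a growth factor that activates PDGFRα. The 7 libraries comprised 2 Srsf3 immunoprecipitations from untreated cells, 1 from PDGF-AA-treated cells that is titled replicate 2, and 4 input or IgG controls. Each condition had a single list of called intervals that gives positions and no score or read number, so the depth behind an interval is unknown, and differences between the lists have no replicate check and were not tested. The table of reads in the study's methods gives the PDGF-AA library more mapped reads than both untreated Srsf3 libraries together, and the part of this depth in the counts below was not tested. Whether a gene gained an interval through binding or through more of its RNA cannot be told from such lists. Wilson 95% intervals are given for shares and cover counting error only.

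Receptors taken up at the cell surface pass through early endosomes, from which they return to the membrane or move on to late endosomes and lysosomes. Rab GTPases give each compartment its identity by recruiting effectors, RabGAPs of the Tbc1d family switch them off, and Vps complexes tether and sort the membranes. Phosphatidylinositol 3-phosphate, made by the class III kinase complexes that contain Becn1, recruits proteins such as Eea1, Hgs and many sorting nexins.

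The intervals on which the description of the single genes turns are shown first, as RNA-strand sequence from GRCm39 read 5′ to 3′. They are the coding intervals of the 6 single genes and of Acap3 in the PDGF-AA list. Capitals mark matches to the purine hexamer AAGAAG or to its shifted forms GAAGAA or AGAAGA, which overlap one another and were searched on the RNA strand only.
Becn1 exon 7: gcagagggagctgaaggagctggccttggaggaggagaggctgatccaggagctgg
Wdr81 exon 1: ctgacagagcagacagaagg
Wdr81 exon 6: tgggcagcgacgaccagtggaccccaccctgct
Wdr81 exon 8: tgtggactgcaggaagccag
Wdr91 exon 8: atccatcatgcactgca
Pikfyve exon 21: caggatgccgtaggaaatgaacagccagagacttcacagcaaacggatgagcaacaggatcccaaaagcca
Hgs exon 13: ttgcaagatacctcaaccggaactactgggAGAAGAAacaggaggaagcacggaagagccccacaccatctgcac
Eea1 exon 12: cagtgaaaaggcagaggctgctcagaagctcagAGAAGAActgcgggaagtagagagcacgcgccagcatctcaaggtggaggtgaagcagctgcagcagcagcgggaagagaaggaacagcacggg
Acap3 exon 18: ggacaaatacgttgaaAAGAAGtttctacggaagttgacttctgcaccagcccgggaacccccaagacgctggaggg
Hgs, Eea1 and Acap3 each held a match to these hexamers, and the intervals of Becn1, Wdr81, Wdr91 and Pikfyve held none. Other motifs were not marked. The study places its Becn1 exon 7 binding at a motif enriched among its peaks near spliced exons. Which motif that is was not examined here. The match of Hgs also lay inside its untreated interval, while those of Eea1 and Acap3 lay outside the untreated intervals. The Becn1 interval lay at chr11:101185884-101185939 on the minus strand, and those of Wdr81 at chr11:75341643-75341662, chr11:75338761-75338793 and chr11:75335532-75335551 on the same strand. The Wdr91 interval lay at chr6:34869277-34869293 on the minus strand. The intervals of Pikfyve at chr1:65285721-65285791, Hgs at chr11:120369289-120369363, Eea1 at chr10:95846822-95846948 and Acap3 at chr4:155987792-155987868 were on the plus strand.

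Becn1, the Beclin 1 subunit of the class III phosphatidylinositol 3-kinase complexes, had no untreated interval and 1 PDGF-AA interval of 56 nt. It lay in exon 7 of 12, an exon of 195 nt that another annotated transcript skips, and ended 88 nt before the 3′ edge of the exon. Wdr81 and Wdr91, partner proteins that restrain this kinase on early endosomes, had no untreated interval either. Wdr81 had 3 short PDGF-AA intervals of 20, 33 and 20 nt, in exons 1, 6 and 8 of 10. The interval in exon 1 lay 23 nt from the end of an exon of 3928 nt, and the interval in exon 8 ended 8 nt from the 3′ edge. Wdr91 had 1 PDGF-AA interval of 17 nt at the 3′ edge of exon 8 of 15, which another transcript skips. Pikfyve, the kinase that converts phosphatidylinositol 3-phosphate to the bisphosphate of late endosomes, had 1 PDGF-AA interval of 71 nt in the middle of exon 21, an exon of 1157 nt. None of these 4 genes had an untreated interval, and for each the presence in 1 list rests on 1 to 3 called intervals.

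Hgs, the ESCRT-0 subunit that sorts ubiquitinated receptors, was bound in both lists at the same place. The untreated interval of 108 nt and the PDGF-AA interval of 75 nt shared 61 nt in exon 13 of 22, which another transcript skips. Eea1, the tether that joins early endosomes, had 1 untreated interval of 124 nt in intron 2, of which 97 nt were shared with a PDGF-AA interval. The PDGF-AA list added a second interval in intron 2 and one of 127 nt in exon 12, an exon of 339 nt. Acap3, a GTPase-activating protein for Arf6, had an untreated and a PDGF-AA interval in exon 18 of 24 that shared 35 nt, and an untreated interval of 21 nt in intron 5. The PDGF-AA interval in exon 18 reached 42 nt farther in the 5′ direction and took in the AAGAAG hexamer. Counted together, the 6 single genes of the rule held 2 untreated and 10 PDGF-AA intervals, where the whole PDGF-AA list was 1.31 times as long as the untreated list. The study picked Becn1, Wdr81 and Acap3 from transcripts with both a peak of these samples and a splicing change in separate RNA-seq. Their counts are therefore not independent evidence. The same holds for the pooled count of the 6 single genes, in which Becn1 and Wdr81 hold 1 and 3 of the PDGF-AA intervals. The study reports increased Acap3 binding in an exon that it numbers differently. The interval in exon 18 was the only PDGF-AA interval of Acap3 in the list, and the exon numbers were not matched to those of the study.

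**Figure D1:**
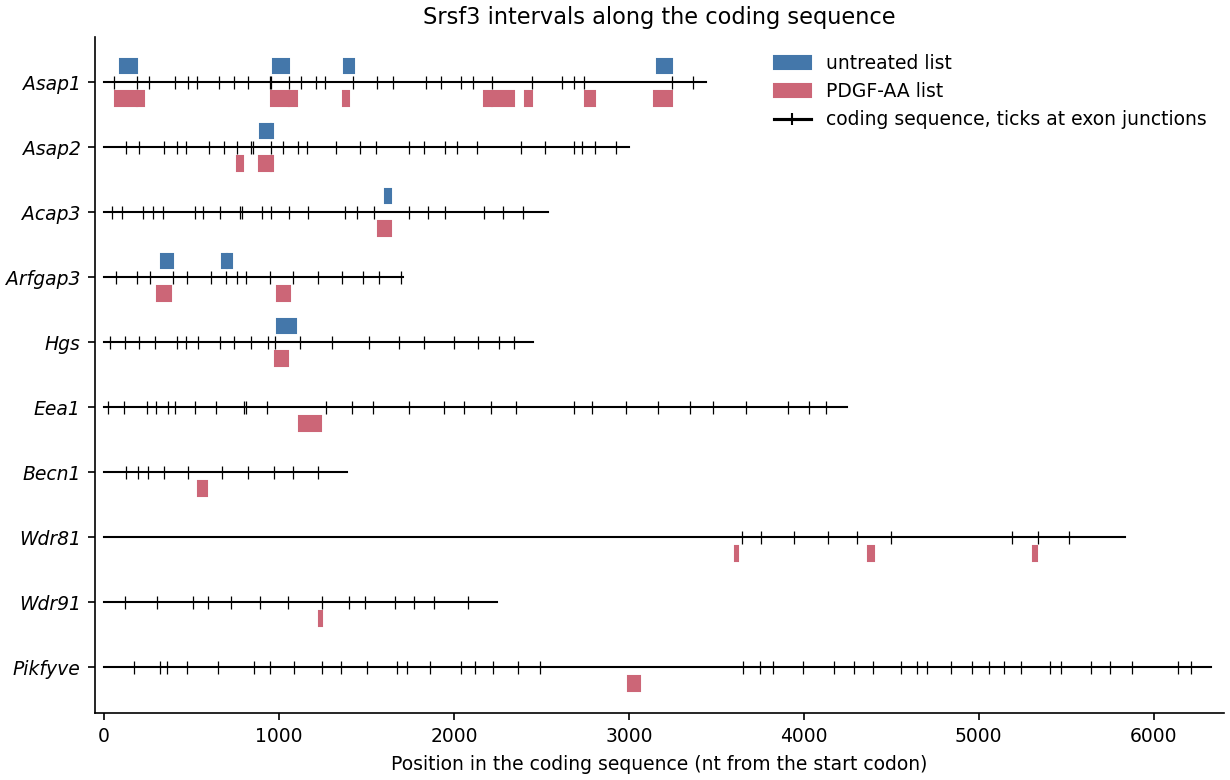
Srsf3 intervals along the coding sequence of 10 genes, in nt from the start codon, in each gene's longest annotated coding sequence. Blue boxes above each line are untreated intervals, red boxes below are PDGF-AA intervals, and ticks are exon junctions. Becn1, Wdr81, Wdr91 and Pikfyve carry red boxes only, while Asap1 carries 4 blue and 10 red boxes, of which neighbours touch. Intervals outside the coding sequence are not drawn, and boxes were moved back by 1 nt.

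Over all 101 genes, 42 (41.6%, Wilson interval 32.5 to 51.3%) had an interval in both lists, 14 (13.9%, 8.44 to 21.9%) in the untreated list only and 45 (44.6%, 35.2 to 54.3%) in the PDGF-AA list only. Over all genes with an interval, 50.4% were in both lists, 16.3% in the untreated list only and 33.2% in the PDGF-AA list only. The counts by class given below are small and stand beside these shares. More intervals in the PDGF-AA list than in the untreated list were held by 61 of the 101 genes (60.4%, 50.6 to 69.4%), against 50.6% of all genes. Fewer were held by 24 (23.8%, 16.5 to 32.9%), against 26.7% of all genes, and 16 had equal numbers. The PDGF-AA list held 1.67 times as many intervals in these genes as the untreated list, beside 1.31 times over all intervals. As a share of each list, the genes took 1.28% (1.03 to 1.59%) of untreated and 1.63% (1.38 to 1.93%) of PDGF-AA intervals. These Wilson intervals overlap, and 2 untreated but 1 PDGF-AA Srsf3 libraries are among the samples here.

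**Figure D2:**
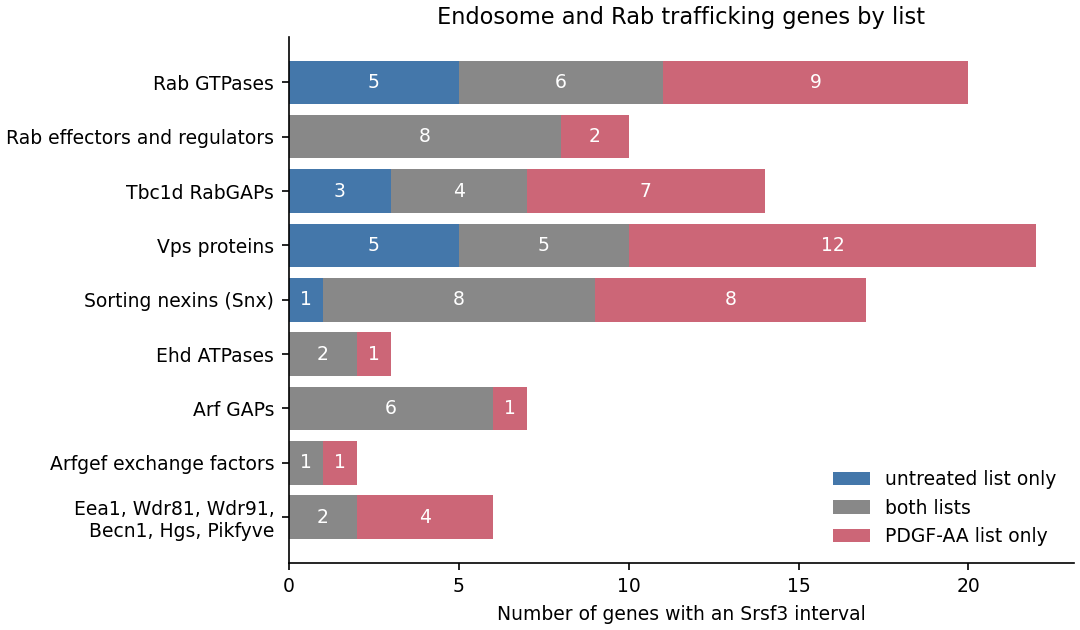
Number of genes with an Srsf3 interval in each class of trafficking gene, split by whether the gene appears in the untreated list only (blue), in both (grey) or in the PDGF-AA list only (red). In the Vps class 5 genes are blue and 12 red, whereas the Rab effectors and regulators are mostly grey, 8 of 10. Of all genes with an interval, 16.3% were in the untreated list only, 50.4% in both and 33.2% in the PDGF-AA list only.

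Of the Rab GTPases, 20 of 59 annotated genes had an interval, 6 in both lists, 5 in the untreated list only and 9 in the PDGF-AA list only. The 13 untreated intervals comprised 4 in coding sequence (CDS) and 4 in introns, while 15 of 20 PDGF-AA intervals were in CDS and none in an intron. The paralogs of the early endosome GTPase Rab5 appeared in different lists. Rab5a had a single PDGF-AA interval of 17 nt in the 5′ UTR, and Rab5c a single untreated interval of 49 nt in exon 4 of 6. Rab7, the late endosome GTPase, and Rab21, which acts in integrin uptake, had 1 untreated interval each in the 5′ UTR. Rab28 had 1 untreated interval in an intron. Rab2a also had 1, which began in exon 1 and lay mostly in the intron after it.

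Intervals of both lists overlapped in 3 Rab GTPases. Rab8a, which acts in exocytosis and ciliary transport, had 2 untreated intervals and 1 PDGF-AA interval, and shared 26 nt in exon 5 of 8. Rab12 had 1 untreated and 2 PDGF-AA intervals in exon 1 and shared 33 nt. Rab14, of the recycling and Golgi route, shared 61 nt in the 5′ UTR. Rab31 had 2 untreated intervals in intron 1 and 1 PDGF-AA interval in CDS of exon 6, and Rab35, a recycling GTPase, had 1 untreated interval in the 3′ UTR of another transcript and 1 PDGF-AA interval in CDS of exon 3. Rab23, a regulator of ciliary and Hedgehog signaling, had 2 PDGF-AA intervals in the 5′ UTR and 1 untreated interval in a non-coding exon. Rab34, Rab43 and Rab8b each had 2 PDGF-AA intervals in CDS and no untreated one, and Rab1b, Rab18, Rab22a, Rab24 and Rab9 had 1 PDGF-AA interval each. The 2 intervals of Rab43 were also assigned by the peak caller to the overlapping gene Gm45140, so they cannot be given to Rab43 alone.

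Of the Rab effectors and regulators, 10 of 15 annotated genes had an interval, 8 of them in both lists. Rab3gap1, the catalytic subunit of the Rab3 GTPase-activating complex, had 2 intervals in each list and both pairs overlapped, by 53 nt in intron 5 and by 58 nt in an exon of another transcript within the same intron. Its partner subunit Rab3gap2 had 1 untreated interval in exon 13 of 36 and 3 PDGF-AA intervals, none of which overlapped it. Rab3ip and Rab3il1 encode related exchange factors for Rab8. Rab3ip had 1 untreated and 3 PDGF-AA intervals, all in intron 5, and the overlapping pair shared 68 nt across a tandem CA repeat. Rab3il1 had an untreated interval with a CA run of 41 nt in intron 1 and a PDGF-AA interval in exon 4. Rabgap1 and Rabgap1l, RabGAPs that also bind other partners, shared 39 nt in exon 20 of 26 and 69 nt in intron 1. Rab11fip3, a Rab11 effector of recycling endosomes, shared 50 nt in exon 11 of 16. Its relative Rab11fip5 had 3 PDGF-AA intervals and no untreated one, 2 of them in exon 4, an exon of 2019 nt. Rabep1, the Rab5 effector rabaptin, had 1 intronic interval in each list at separate places, and Rab11fip1 had 1 PDGF-AA interval.

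Among the Tbc1d genes, grouped by symbol and not by RabGAP activity, 14 of 30 annotated genes had an interval. Of these, 4 were in both lists, 3 in the untreated list only and 7 in the PDGF-AA list only. The class held 8 untreated intervals, of which 4 were intronic and all 4 carried a tandem CA run, and 18 PDGF-AA intervals, of which 17 were in CDS and none in an intron. Tbc1d9b shared 51 nt in exon 4 of 23 and had a further PDGF-AA interval in exon 3. Tbc1d10a shared 24 nt at the end of exon 1. Tbc1d31 had 3 PDGF-AA intervals in exons 15 and 16 and 1 untreated interval in the 3′ UTR of another transcript. Tbc1d12 had 2 untreated intervals, with CA runs of 29 nt in intron 7 and 16 nt in intron 11, and 1 PDGF-AA interval in exon 1, so its order turned over when CA intervals were left out. Tbc1d22a had 3 PDGF-AA intervals in exons 3, 7 and 10 of 13 and no untreated one. Tbc1d1, a RabGAP of glucose transporter traffic, and Tbc1d20, a RabGAP for Rab1, had 2 PDGF-AA intervals each. Tbc1d10b, Tbc1d15, Tbc1d16 and Tbc1d17 had 1 PDGF-AA interval each, and Tbc1d19, Tbc1d23 and Tbc1d24 had 1 untreated interval each.

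The Vps symbols had 22 of 35 annotated genes with an interval, 5 in both lists, 5 in the untreated list only and 12 in the PDGF-AA list only. Beside them, 16.3% of all genes with an interval were in the untreated list only and 33.2% in the PDGF-AA list only. The Vps genes were read by complex, a grouping made after their values were seen. Most counts by complex rest on 1 interval per gene and were not tested. Of the 7 HOPS and CORVET subunits named Vps, which tether endosomes and lysosomes, only Vps16 had untreated intervals, and 6 had PDGF-AA intervals. Vps11, Vps33a, Vps41 and Vps8 had 1 PDGF-AA interval each and Vps18 had 2, all in CDS, and Vps39 had none. Vps16 had 3 untreated and 2 PDGF-AA intervals in exons 10 to 12, all of which another transcript skips. A PDGF-AA interval of 51 nt in exon 11 overlapped the longer of the 2 untreated intervals there by 34 nt and lay 13 nt from the shorter. Vps33b, the Vps33a paralog of the related CHEVI complex, shared 34 nt in exon 14 of 24.

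Of the GARP and EARP tethering subunits, Vps51 shared 43 nt in exon 3 of 10, Vps52 and Vps54 had 1 PDGF-AA interval each, and Vps50 and Vps53 had 1 untreated interval each. The 3 ESCRT-I subunits of this name with an interval were Vps28, Vps37a and Vps37c. Each had 1 untreated and no PDGF-AA interval, beside 16.3% of all genes in the untreated list only. The interval of Vps37a lay in the 3′ UTR across a CA run of 42 nt. The paralogous AAA ATPases Vps4a and Vps4b, which disassemble ESCRT-III, had 1 PDGF-AA interval each in CDS. None of the 4 retromer genes Vps26a, Vps26b, Vps29 and Vps35 and neither of the ESCRT-II genes Vps25 and Vps36 had an interval. Vps35l, of the related retriever complex, had 1 interval in each list, in exons 3 and 7 of 31. Vps9d1 shared 31 nt in exon 7 of 15 and had a further PDGF-AA interval in exon 6. The lipid transfer proteins Vps13a and Vps13d had 1 PDGF-AA interval each. Vps72 had 1 PDGF-AA interval in exon 2 of 6, but its product is a subunit of a chromatin remodeler and not a trafficking protein.

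Of the sorting nexins, which bind phosphoinositides through a PX domain, 17 of 30 annotated genes had an interval, 8 in both lists, 1 in the untreated list only and 8 in the PDGF-AA list only. Among the nexins that work with retromer, Snx1 had 1 untreated interval in exon 4 of 16, Snx5 and Snx6 had 1 PDGF-AA interval each, Snx32 had 1 in each list and Snx2 had none. The endocytic nexins Snx9, Snx18 and Snx33, which are paralogs, were each bound in both lists. Snx9 had 4 untreated and 2 PDGF-AA intervals and was the only gene of the rule with 2 or more fewer in the PDGF-AA list. Of its untreated intervals, 3 were intronic and absent from the PDGF-AA list, and the fourth shared 32 nt in exon 13 of 19. Snx33 shared 29 nt in exon 1 and had 1 further PDGF-AA interval, and Snx18 had 1 untreated and 2 PDGF-AA intervals in exon 1, separated by 122 nt or more. Snx8 had 2 intervals in each list and shared 24 nt in exon 4 of 11. Snx24 and Snx25 were bound at tandem CA repeats in introns, with shared stretches of 76 and 94 nt. Snx4 had an untreated interval in intron 5 and a PDGF-AA interval in exon 2. Snx7 had 2 PDGF-AA intervals, both intronic, and Snx3, Snx13, Snx17, Snx19 and Snx30 had 1 PDGF-AA interval each.

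The Ehd ATPases, which remodel recycling endosomes, had an interval in 3 of 4 genes. Ehd1 had 2 untreated and 3 PDGF-AA intervals. In its exon 4 the intervals shared 6 nt, the shortest overlap of the set, and in exon 3 they lay 34 nt apart. Ehd2, of caveolae, had 2 untreated intervals 3 nt apart in exon 3 and 1 PDGF-AA interval in exon 5, and Ehd4 had 2 PDGF-AA intervals in its last exon. Of the large exchange factors for Arf GTPases at the Golgi, Arfgef1 had 2 untreated intervals that flanked 1 PDGF-AA interval of 86 nt in exon 1, at 12 and 42 nt. Arfgef2 had 1 PDGF-AA interval in exon 35 of 39.

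The Arf GTPase-activating proteins held 17 untreated and 20 PDGF-AA intervals in 7 of 9 annotated genes, 6 of them in both lists, a ratio of 1.18. Asap1, which acts at focal adhesions and podosomes, had the most intervals of the set, 8 untreated and 10 PDGF-AA. All 10 PDGF-AA intervals lay in CDS, in exons 3, 4, 13, 14, 17, 24, 25 and 29 of 31. Of the 8 untreated intervals, 4 lay in CDS of exons 3, 13, 17 and 29, and each of them overlapped a PDGF-AA interval, by 96, 89, 27 and 85 nt. The other 4 untreated intervals lay in introns 2, 3 and 29 over CA runs of 51, 17, 34 and 62 nt, and no PDGF-AA interval overlapped them. The difference between the lists was thus 2 intervals in all and 6 without CA intervals. Asap2 had 2 untreated and 3 PDGF-AA intervals, and the pairs in exons 11 and 12 of 29 shared 65 and 10 nt.

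The smaller Arf GTPase-activating proteins of the Golgi, Arfgap1, Arfgap2 and Arfgap3, differed among themselves. Arfgap1 shared 88 nt over exon 5 of 14, whose whole length of 101 nt was covered by the untreated interval, and had 1 further PDGF-AA interval in exon 4. Arfgap3 had 3 untreated and 2 PDGF-AA intervals, of which 1 pair shared 55 nt in exon 4 of 17. Arfgap2 had 1 PDGF-AA interval in exon 11 of 17. Acap2, like Acap3 an Arf6 GTPase-activating protein, had 1 untreated interval in exon 18 of 25 and 1 PDGF-AA interval in intron 4.

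**Figure D3:**
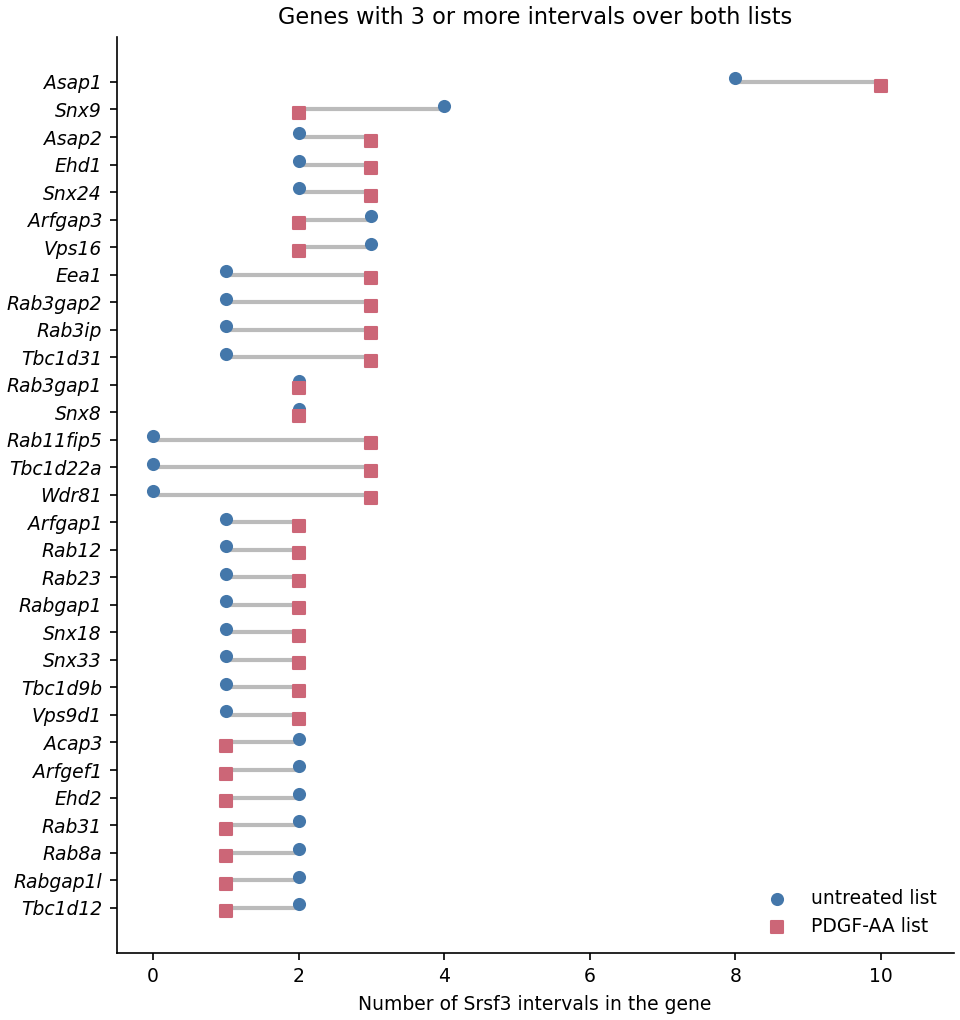
Number of Srsf3 intervals in each of the 31 trafficking genes with 3 or more over both lists. Blue circles are the untreated list, red squares the PDGF-AA list, and grey lines join them. Asap1 stands at 8 and 10, Snx9 at 4 and 2, and Rab11fip5, Tbc1d22a and Wdr81 at 0 and 3.

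All 14 genes of the untreated list only had a single interval, 4 of 14 in CDS (28.6%, 11.7 to 54.7%) and 5 in introns, beside 32.6% and 53.9% for all genes of the untreated list only. The 45 genes of the PDGF-AA list only held 59 intervals, 50 of them in CDS (84.7%, 73.5 to 91.8%) and 2 in introns, beside 82.4% and 8.33% for all genes of the PDGF-AA list only, and 34 of the genes had a single interval. Over all trafficking genes, 42 of 82 untreated intervals were in CDS (51.2%, 40.6 to 61.7%) and 30 in introns (36.6%, 27.0 to 47.4%). In the PDGF-AA list, 108 of 137 were in CDS (78.8%, 71.3 to 84.8%) and 17 in introns (12.4%, 7.89 to 19.0%). Over all protein-coding genes the shares in CDS were 54.7% and 81.9%, and in introns 36.3% and 11.9%, all inside the intervals of the trafficking genes. In the 5′ UTR were 4 untreated and 7 PDGF-AA intervals, and in the 3′ UTR 5 in each list. These untreated 3′ UTR intervals were 6.10% (2.63 to 13.5%) of the list, beside 2.46% over all genes.

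**Figure D4:**
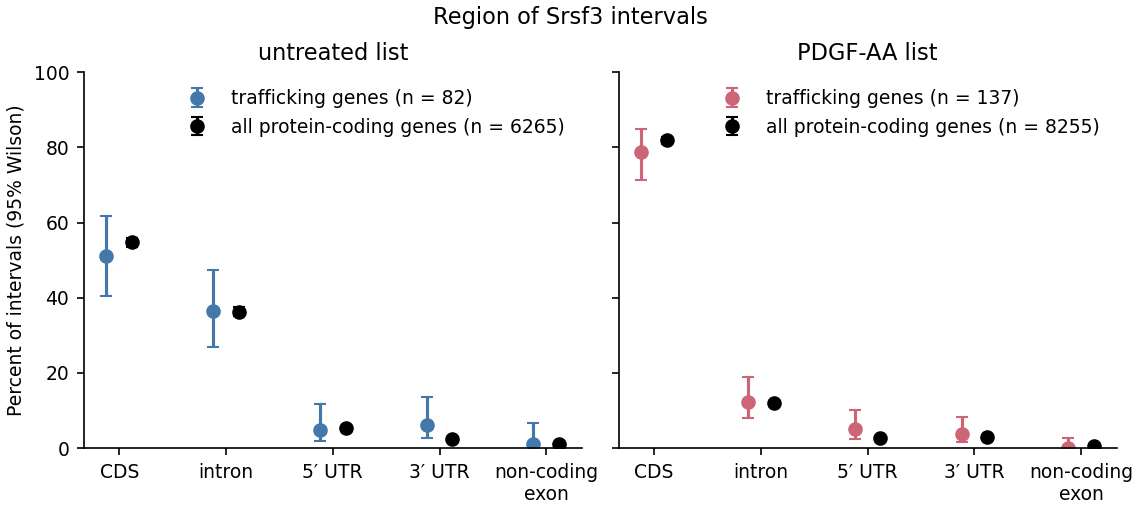
Share of intervals in each region of the gene, in percent with Wilson 95% intervals, for trafficking genes (colour) and all protein-coding genes (black), in the untreated (left) and PDGF-AA (right) lists. CDS holds 51.2% and 78.8% of the intervals of trafficking genes, close to the black points.

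By position, 32 of 82 untreated intervals (39.0%, 29.2 to 49.8%) overlapped a PDGF-AA interval by at least 1 nt, against 38.8% of all untreated intervals. Of the PDGF-AA intervals, 32 of 137 (23.4%, 17.1 to 31.1%) overlapped an untreated one, against 29.6% of all. The 32 pairs lay in 27 genes, 25 in CDS, 6 in introns and 1 in a 5′ UTR, and shared 6 to 97 nt, with a median of 50.5 nt. In CDS, 25 of 42 untreated intervals (59.5%, 44.5 to 73.0%) were shared, beside 57.5% over all genes. In introns, 6 of 30 untreated intervals (20%, 9.5 to 37.3%) were shared, beside 14.6% over all genes. Of the intronic PDGF-AA intervals, 6 of 17 (35.3%, 17.3 to 58.7%) were shared, beside 33.9% over all genes. Of these 6 intronic pairs, 3 were the CA repeats of Rab3ip, Snx24 and Snx25. Of the 39 coding exons of trafficking genes bound in the untreated list, 26 (66.7%, 51.0 to 79.4%) were bound in the PDGF-AA list too, beside 61.3% over all genes.

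In 25 of 32 overlapping pairs (78.1%, 61.2 to 89.0%) the PDGF-AA interval reached farther in the 5′ direction along the RNA, by a median of 12 nt over all pairs, and in 4 pairs the untreated interval did. At the 3′ end the untreated interval reached farther in 18 pairs (56.2%, 39.3 to 71.8%) and the PDGF-AA interval in 9 (28.1%, 15.6 to 45.4%). In all 2483 pairs of the lists, the PDGF-AA interval reached farther at the 5′ end in 58.8% and at the 3′ end in 44.4%, with medians of 3 and 0 nt. The untreated interval reached farther in 26.2% of them at the 5′ end and in 35.7% at the 3′ end. Clear examples in the set were Rab11fip3 exon 11 at 55 nt, Acap3 exon 18 at 42 nt and Snx9 exon 13 at 39 nt. The clearest exception was Snx33 at -40 nt. The largest value, 70 nt in Ehd1 exon 4, came from intervals that shared only 6 nt. Since peaks were called once per list, the ends have no replicate.

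Placement within exons was read from the internal coding exons. There 14 of 37 untreated intervals (37.8%, 24.1 to 53.9%) ended within 2 nt of the 3′ edge of the exon, beside 29.3% over all genes, and 15 of 81 PDGF-AA intervals (18.5%, 11.6 to 28.3%), beside 22.1%. The median distance to the 3′ edge was 4 nt in the untreated and 19 nt in the PDGF-AA list, and 10 and 34 nt over all genes. Examples are the untreated intervals of Asap1 exons 13, 17 and 29, Rab11fip3 exon 11 and Arfgap3 exon 4, which ended at the edge. The PDGF-AA intervals that overlapped them ended at the same nucleotide in Asap1 exons 13 and 29, and 29, 4 and 11 nt earlier in Asap1 exon 17, Rab11fip3 and Arfgap3. An exon edge was passed by over 2 nt in 4 of 37 untreated intervals (10.8%, 4.29 to 24.7%), beside 11.95% over all genes. These were in Asap1 exon 3, Ehd1 exon 4, Ehd2 exon 3 and Vps28 exon 8, each at the 3′ edge. In the PDGF-AA list it was 1 of 81, beside 1.525% over all genes. The bound internal exons had median lengths of 113 nt in the untreated and 136 nt in the PDGF-AA list, beside 141 and 156 nt over all genes. Exons that another annotated transcript skips held 8 of 37 untreated intervals (21.6%, 11.4 to 37.2%) and 26 of 81 PDGF-AA intervals (32.1%, 22.9 to 42.9%), beside 27.7% and 26.7% over all genes. Those of the PDGF-AA list include exons of Becn1, Wdr91, Hgs, Vps16, Vps33a, Vps41, Vps4b, Snx5 and Snx6.

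Sequence elements were counted on the RNA strand in a window of 50 nt centred on each interval. At least one of the 3 purine hexamers was in 12 of 82 untreated windows (14.6%, 8.57 to 23.9%) and in 42 of 137 PDGF-AA windows (30.7%, 23.6 to 38.8%), beside 17.3% and 29.5% of all windows of the 2 lists. GAAGAA alone was in 1 untreated window of the set, that of Snx4 in intron 5 (1.22%, 0.216 to 6.59%), against 10.5% of all untreated windows, and in 23 PDGF-AA windows (16.8%), against 17.2% of all. The low untreated share of GAAGAA depended on the window, and was 3.66% in the intervals as deposited and 7.32% in windows of 100 nt, beside 11.3% and 14.9% of all. AAGAAG was in 9.76% and 12.4% of windows, beside 11.2% and 17.5% of all, and AGAAGA in 8.54% and 16.8%, beside 11.8% and 19.9%. GAAGCG was in 3 windows of each list, 3.66% and 2.19%, beside 1.78% and 3.04% of all. CACACA was in 15 untreated windows (18.3%) and 5 PDGF-AA windows (3.65%), beside 20.3% and 2.58% of all. The study chose these hexamers on the same libraries, so they are not independent evidence.

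A tandem CA run of at least 12 nt was held by 14 of 82 untreated intervals (17.1%, 10.5 to 26.6%) in 9 genes and by 3 of 137 PDGF-AA intervals (2.19%, 0.748 to 6.24%) in 3 genes. Over all intervals the shares were 16.9% and 1.18%. The longest untreated run, in intron 29 of Asap1, and the run shared by both lists in intron 5 of Rab3ip show the element, with the uninterrupted run in capitals.
Asap1 intron 29: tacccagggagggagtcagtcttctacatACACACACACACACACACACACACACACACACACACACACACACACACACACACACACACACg
Rab3ip intron 5: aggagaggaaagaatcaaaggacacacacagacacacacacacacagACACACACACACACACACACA
The Asap1 interval lay at chr15:63964129-63964220 and the Rab3ip interval of the PDGF-AA list at chr10:116762868-116762935, both on the minus strand. The Rab3ip run was 21 nt inside the PDGF-AA interval and 29 nt inside the longer untreated interval. Of the 14 untreated runs, 4 were in Asap1 and 4 in the Tbc1d genes Tbc1d12, Tbc1d19 and Tbc1d23. All 3 PDGF-AA intervals with a run overlapped an untreated interval with one. Reads of repetitive elements had been removed before alignment, and its effect on these repeats was not tested.

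**Figure D5:**
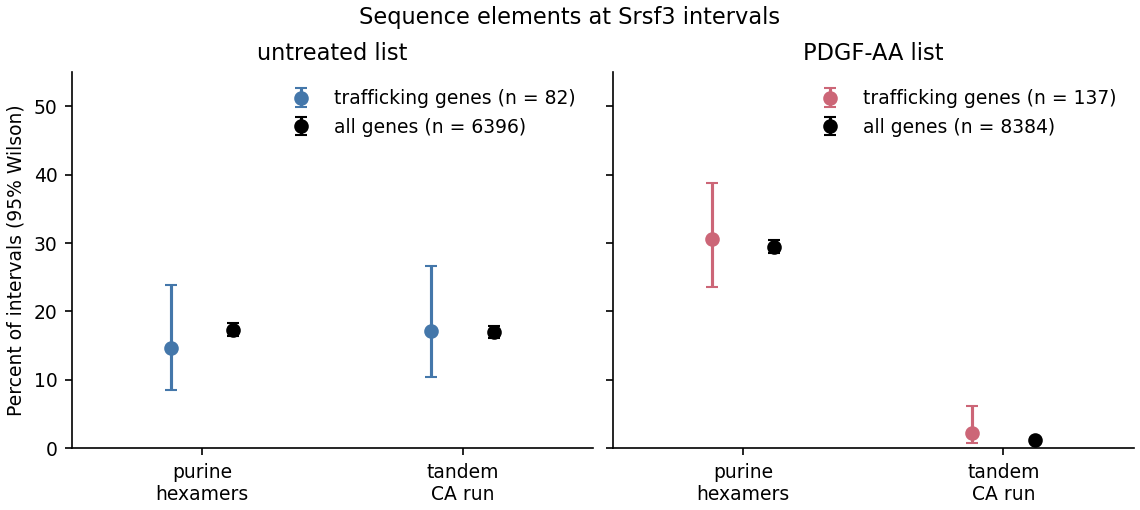
Percent of 50 nt windows with any of the 3 purine hexamers and percent of intervals with a tandem CA run of at least 12 nt, with Wilson 95% intervals, for trafficking genes (colour) and all genes (black). Purine hexamers are in 14.6% of untreated and 30.7% of PDGF-AA windows of trafficking genes, and CA runs in 17.1% and 2.19% of intervals.

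Many of these genes are paralogs, so it was asked whether related proteins were bound at matching codons. Of 376 pairs of genes within a class that both had a coding interval, 35 pairs had proteins at least 40% identical over at least 70% of the shorter one. In 13 of these 35 pairs the intervals met at 1 or more aligned codons, and in 6 at 10 or more. The 2 clearest pairs are shown, with capitals marking the purine hexamers as before.
Asap1 exon 13: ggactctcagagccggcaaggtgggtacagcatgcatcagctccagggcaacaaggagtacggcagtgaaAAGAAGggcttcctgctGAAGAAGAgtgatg
Asap2 exon 11: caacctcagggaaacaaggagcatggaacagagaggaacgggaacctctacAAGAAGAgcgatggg
Snx5 exon 4: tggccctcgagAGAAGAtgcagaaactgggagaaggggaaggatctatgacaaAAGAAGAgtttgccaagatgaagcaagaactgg
Snx6 exon 5: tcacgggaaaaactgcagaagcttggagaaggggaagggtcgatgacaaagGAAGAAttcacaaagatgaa
These PDGF-AA intervals lay at chr15:64024680-64024780 on the minus strand for Asap1, chr12:21268015-21268080 on the plus strand for Asap2, chr2:144100981-144101066 on the minus strand for Snx5 and chr12:54817519-54817589 on the minus strand for Snx6. The proteins of Asap1 and Asap2 were 63.7% identical, and the intervals of both lists met at the same 21 codons, with 43 of 63 nt and 14 of 21 residues identical. The next exons, Asap1 exon 14 and Asap2 exon 12, met at 3 more codons. Snx5 and Snx6, 66.9% identical, met at 23 codons in the PDGF-AA list, with 55 of 69 nt and 21 of 23 residues identical.

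The other long matches were Arfgap2 exon 11 and Arfgap3 exon 11 at 15 codons, Snx18 and Snx33 at 18 codons, Snx18 and Snx9 also at 18, and Rab22a and Rab5c at 10 codons. In Arfgap2 and Arfgap3 both intervals were of the PDGF-AA list, and 29 of 45 nt were identical. The 18 codons of Snx18 and Snx9 also came from 2 PDGF-AA intervals. The match of Snx18 and Snx33 paired a PDGF-AA with an untreated interval, and their PDGF-AA intervals met at 4 and 2 codons only. The Rab22a interval was of the PDGF-AA list and that of Rab5c of the untreated list, with 15 of 30 nt identical. The pairs Vps4a and Vps4b (82.5% identical), Arfgef1 and Arfgef2 (77.9%), Ehd1 and Ehd4 (75.6%) and Acap2 and Acap3 (66.0%) had intervals in both genes but at no aligned codon. How often unrelated intervals would meet was not estimated.

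Other genes of the same pathways, from a list of 98 genes outside the rule, had an interval in 33 genes in the untreated and 46 in the PDGF-AA list, with 28 in both, 5 in the untreated list only and 18 in the PDGF-AA list only. The last were 35.3% (23.6 to 49.0%) of the 51 bound genes, near the 33.2% of all genes, and those in the untreated list only 9.80%, beside 16.3%. Of 20 genes of class III phosphatidylinositol 3-kinase and phosphatidylinositol 3-phosphate, 4 were bound in both lists and 5 in the PDGF-AA list only, among them Uvrag, a Becn1 partner, and Vac14, the Pikfyve scaffold, with 2 PDGF-AA intervals each. The catalytic subunit Pik3c3, its partner Pik3r4 and Atg14 had none. Of 24 Rab exchange factors and recycling genes, 8 were bound in the untreated and 11 in the PDGF-AA list. The Rab5 exchange factors Rin1 and Rin3 had 2 and 1 untreated and 4 PDGF-AA intervals each. Of 12 tethers and FYVE or APPL proteins 5 and 8 were bound, with Appl1 and Appl2 in the PDGF-AA list only, and of 14 ESCRT partners 3 and 4. The 28 Arf GTPases and other Arf regulators held 28 untreated and 27 PDGF-AA intervals in 13 and 14 genes. Arf6, the GTPase on which Acap proteins act, had 2 PDGF-AA intervals only, and the Arf GTPase-activating proteins Agap1 and Agap3 had 5 and 4 untreated and 1 PDGF-AA interval each.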

How the data were processed

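To make the deposited lists, the authors removed adapters (cutadapt), merged reads of the same molecular identifier, set aside reads from repetitive elements and aligned the rest with STAR. Peaks were called for each condition with omniCLIP, and RCAS supplied gene names. Versions 1.18 of cutadapt and 2.7.9 of STAR, and the builds GRCm38 and GRCm39, stand in the processing notes of the submitters, and the library used as background for the peaks is not given in the sources used here. The deposited full lists hold intervals and gene names, with no score or count. The 2 further lists of peaks unique to a condition were not used.

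Each distinct interval was counted once. It was placed on GRCm39 with GENCODE M39 in the region with most of its nucleotides. A nucleotide of several regions counted as CDS first, then as UTR, then as non-coding exon and last as intron. Exon numbers are those of the transcript with the longest CDS. Interval edges tend to lie 1 nt after exon edges in genome coordinates, and intervals are printed as deposited. Edges within 2 nt were called at an exon edge. Overlap needed 1 nt on the same strand. Proteins translated from the longest CDS were aligned with biotite 1.4.0, other steps used Python 3.11.15 and pysam 0.24.0, and the interval functions were tested on simulated data. Samples were grouped by title. With 1 list per condition no test was run. Genes given with values are the 6 single genes and Acap3, and those with 3 or more intervals, a difference of 2 or more, or a position-shared interval. The rest are named with counts, and those given positions among them, as well as the grouping by complex, were chosen after their values were seen. Genes, lists and alternatives were chosen with earlier results of these data known, and the paralog and interval-end comparisons were added after the values were seen.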

Additional observations from a re-analysis of the deposited data

How the results depend on the processing

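Of 293 values recomputed under alternatives, 269 were called the same, 23 moved and 1 reversed. Here the same does not mean unchanged. It means within 1.5 times for counts over the set, and within the Wilson interval for shares. Of the moved values, 11 were group results and 12 were differences in single genes, of which 49 were tried. The total of 293 therefore mixes both kinds and is no measure of how firm the group results are. The counts of intervals in each list stayed within 1.5 times of their values when the caller's gene was used, CA intervals were left out, intervals within 50 nt were merged, every deposited row was counted or Tbc1d genes were left out. Counts of genes in 1 or both lists were recomputed with the caller's gene and without CA intervals, and stayed within the same limit. The share of position-shared intervals stayed within its Wilson interval under every overlap rule tried. Without CA intervals, untreated shares became 61.8% in CDS and 25.0% in introns. With any UTR overlap placed before CDS, CDS shares became 19.5% untreated and 27.7% PDGF-AA. In the transcript with the longest CDS only, 19.0% of PDGF-AA intervals were intronic. In windows of 100 nt, GAAGAA was in 7.32% of untreated windows, and AAGAAG and AGAAGA in 20.4% and 26.3% of PDGF-AA windows. Among CDS intervals only, CACACA was in 0% of both lists and GAAGAA in 0% of untreated windows. Tbc1d12 turned from 1 fewer to 1 more PDGF-AA interval without CA intervals, and Snx25 had no interval left. Merging removed the difference in Ehd2, Rab12, Rab31 and Vps16, and brought it from 2 intervals to 1 in Rab34, Rab3gap2, Rab8b, Tbc1d20 and Tbc1d31. The depth behind each interval is unknown, and an interval missing from 1 list does not show that binding was absent. No paired analysis was possible because each condition has 1 list and no test was run.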
